A study of Mus musculus with 8 samples.

Results

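MiR-1897-5p (mmu-miR-1897-5p) and miR-1897-3p (mmu-miR-1897-3p), the products of the 5′ and 3′ sides of one mouse hairpin, were followed through serum microarrays of irradiated and non-irradiated mice. They are 2 of the 1881 mouse miRNAs on the array, and every array row named for either arm was used. MiR-1897-5p was picked because its mean signal was far higher at 7 Gy than at 0 Gy on these same arrays, so its difference is a description and carries no test here. The 0 Gy group holds 4 sera of non-irradiated mice and the 7 Gy group holds 4 sera of mice given 7 Gy of X-rays to the whole body. All mice were male C57BL/6NJcl aged 8 weeks at exposure, and the irradiated sera were taken at 72 h, while the sources used here name no time for the 0 Gy sera on the arrays. The labels do not say whether an array holds the serum of 1 mouse or of several, so that the spread between arrays may be technical in part. Each array received Cy3-labelled RNA made from 30 ng of serum RNA, and all 8 arrays shared 1 slide. Slide columns 1 and 2 held the 0 Gy sera and columns 3 and 4 the 7 Gy sera, so that group and slide column cannot be told apart here, while each slide row held both groups.

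A miRNA gene is transcribed into a hairpin that is cut into a short duplex, and 1 strand of the duplex is usually loaded into an Argonaute protein while the other strand is degraded. The 2 strands are named 5p and 3p after their side of the hairpin, and bases 2 to 8 of the loaded strand, the seed, pair with target mRNAs. Extracellular miRNAs in serum are protected by vesicles and proteins, and blood cells and liver are well-known sources of them.

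The hairpin and its 3p arm are shown to place the arm that was hardly detected within the precursor of both. In RefSeq's table for GRCm38.p6 the miR-1897 hairpin of 79 bases lies at chr3:34638464-34638542 on the + strand. It lies inside the span of Sox2ot, a long noncoding RNA gene that overlaps Sox2, with Gm42205 as the gene before it and Sox2, a transcription factor of stem cells, as the gene after it. The 3p arm of 22 bases lies at chr3:34638511-34638532. In the first line below the capitals mark the 3p arm within the hairpin, and in the second line they mark the seed of that arm.
miR-1897 hairpin: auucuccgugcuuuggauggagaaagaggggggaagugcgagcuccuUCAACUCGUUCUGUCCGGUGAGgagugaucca
miR-1897-3p: uCAACUCGuucuguccggugag
The 47 hairpin bases before the 3p arm held 18 G, or 38.3%, and their longest run of G was 6 bases long, at hairpin bases 28 to 33. In the 3p arm 27.3% of the bases were G and the longest run was 2. These counts describe the hairpin and were not taken over the mature 5p miRNA, whose ends within it were not located. A and G together made up 59.6% of the bases before the 3p arm and 40.9% of the 3p arm. No mature sequence of another miRNA on the array shared bases 2 to 8 of miR-1897-3p.

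MiR-1897-5p was measured by 2 probes with 15 spots each, and all 30 spots were well above background on every array, 120 of 120 in either group. The mean spot signal, background-subtracted but not scaled between arrays, was 930, 941, 831 and 1003 array units on 0 Gy replicates 1 to 4. It was 1626, 2958, 1114 and 3777 on 7 Gy replicates 1 to 4. The 4 non-irradiated arrays lay close together and all 4 irradiated arrays lay above them, with 7 Gy replicate 3 only just so. The group means were 926 ± 70.9 (SD, n = 4) and 2369 ± 1219 (SD, n = 4), and the mean log2 difference was 1.20, a ratio of geometric means of 2.29. Of the 208 miRNAs that entered the tests described below, 3 had every irradiated array above every non-irradiated one on this scale, a background of 1.44%, namely miR-1897-5p, miR-2861 and miR-3960. The spots themselves were tight, with a coefficient of variation (CV) within 1 array and probe of 1.84% to 4.30%. Taken singly with the 90th percentile scaling described below, probe A_54_P00004552 gave a log2 difference of 2.28 (SE 0.61) and probe A_54_P00004584 gave 2.25 (SE 0.59). Without scaling the total signals of these probes gave 1.02 (SE 0.51) and 0.99 (SE 0.53). The SE of single probes come from the variances of the 2 groups and not from the fit across miRNAs.

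**Figure D1:**
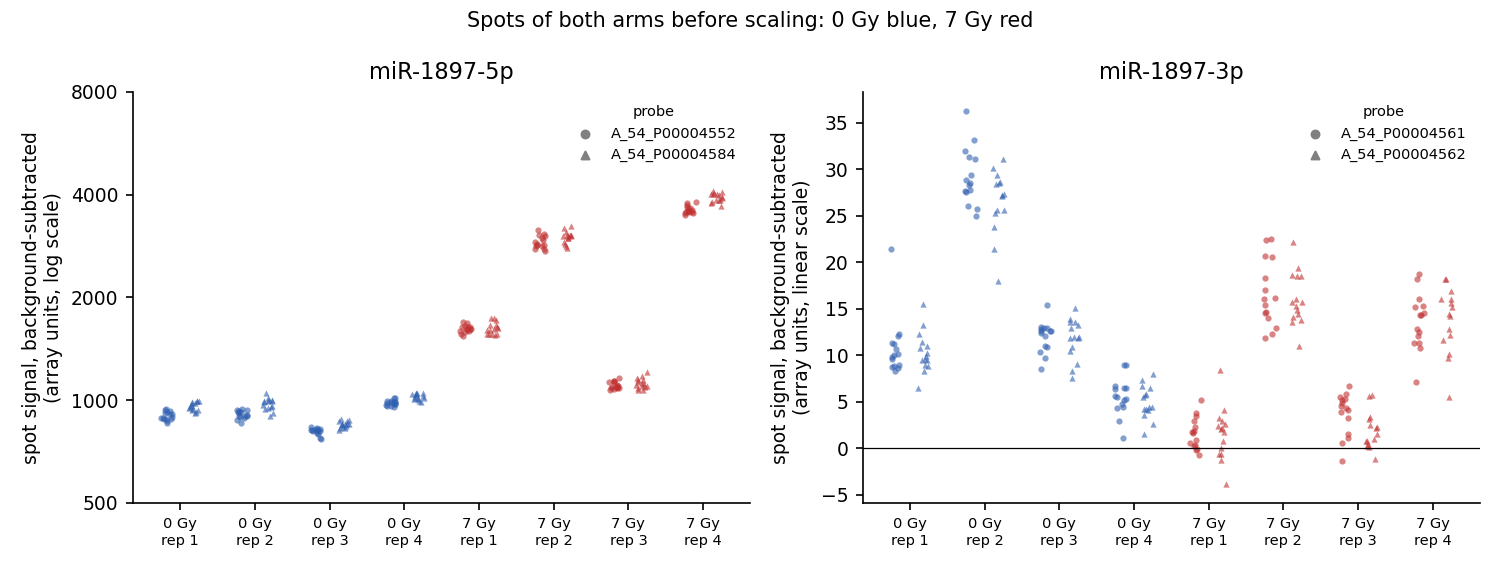
Every spot of miR-1897-5p (left, log axis) and miR-1897-3p (right, linear axis), background-subtracted and not scaled, in array units, for each of the 8 arrays, with 0 Gy in blue, 7 Gy in red and a marker shape for each probe. Spots of miR-1897-5p form tight bands that lie higher on all 4 irradiated arrays, whereas spots of miR-1897-3p reach at most 36.3 units and spread around 0 on 7 Gy replicates 1 and 3.

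The total signal of a miRNA, which Feature Extraction derives from its probes, placed 1 irradiated array among the controls. It was 518, 526, 464 and 562 on the 0 Gy arrays and 690, 1666, 472 and 2131 on the 7 Gy arrays, each in replicate order. On this scale 3 of the 4 irradiated arrays lay above every control and 7 Gy replicate 3 lay within their range. With these totals 0 of the 208 tested miRNAs had every irradiated array above every control. The software's own error was 7.08% of each total. The means were 517 ± 40.7 (SD, n = 4) and 1240 ± 789 (SD, n = 4), and the log2 difference was 1.01 (SE 0.49). The totals and the spots differ by a factor that belongs to the array. The total of miR-1897-5p was 0.278 to 0.282 of the sum of its probes' mean spot signals on 6 arrays, but 0.212 on 7 Gy replicates 1 and 3. The other miRNAs showed the same factors, with medians of 0.212 on those 2 arrays and 0.278 to 0.282 on the rest, so that the lower totals there are not particular to miR-1897-5p. Between 89.2% and 93.5% of the miRNAs with a total of at least 50 lay within 2% of their array's median factor.

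Before scaling, the non-irradiated sera gave nearly the same miR-1897-5p total, with a CV of 7.86%. Among the 202 tested miRNAs detected on all 4 non-irradiated arrays this was the 3rd lowest CV, against a median of 35.0%, and 6 of the 202 were under 10%. After scaling to the 90th percentile the CV of miR-1897-5p was 46.0%, rank 94 of 202 from the lowest, close to the median of 48.3%. Scaling lowered the CV of 88 of the 202.

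With each array scaled to its 90th percentile over all mouse miRNAs, the scaling used for the main values here, the miR-1897-5p signal was 202, 238, 493 and 522 on 0 Gy replicates 1 to 4. It was 2988, 631, 2187 and 1611 on 7 Gy replicates 1 to 4. The groups did not overlap, and the lowest irradiated array was 7 Gy replicate 2, close above the highest control. The means were 364 ± 167 (SD, n = 4) and 1854 ± 992 (SD, n = 4). The log2 difference was 2.27 (SE 0.55), a ratio of geometric means of 4.81. It was the 2nd highest of the 208 miRNAs tested, next to miR-2861 at 2.28 and ahead of miR-3960 at 1.83 and miR-5128 at 1.80. The median of all 208 was 0.17, and miR-1897-5p lay 2.09 above it. Of the 208 miRNAs 14, or 6.73%, had every irradiated array above every control on this scale, and 11, or 5.29%, had every irradiated array below.

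**Figure D2:**
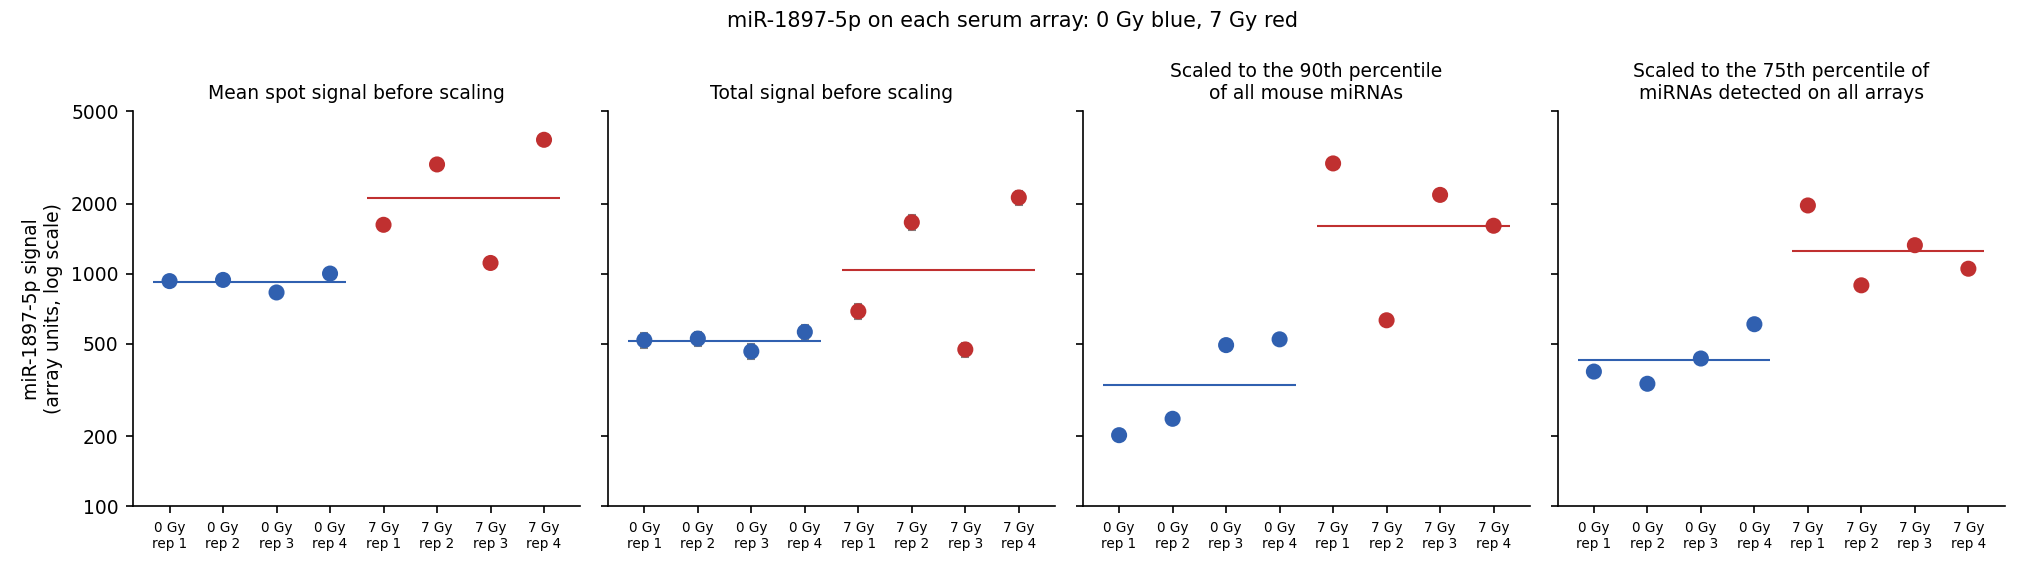
Signal of miR-1897-5p in array units (log axis) on each of the 8 arrays as mean spot signal, as total signal before scaling, and after 2 scalings, with 0 Gy in blue, 7 Gy in red, horizontal lines at the geometric means and error bars at Feature Extraction's error in the second panel only. The 7 Gy array with the lowest scaled signal, replicate 2 at 631, is the second highest before scaling at 1666.

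The size of the difference and the order of the irradiated arrays depended on the scaling. Against the 0 Gy mean, 7 Gy replicates 1 to 4 stood at log2 differences of 3.16, 0.92, 2.71 and 2.27 with 90th percentile scaling. Their total signals without scaling stood at 0.42, 1.69, −0.13 and 2.05, so replicates 1 and 3 went from lowest to highest. The 90th percentile itself was 91.2, 78.8, 33.4 and 38.3 on the 0 Gy arrays and 8.21, 93.9, 7.68 and 47.1 on the 7 Gy arrays, which multiplied 7 Gy replicates 1 and 3 by 4.33 and 4.63 and the other 6 arrays by 0.379 to 1.06. When the 311 miRNAs seen on every array gave the scale instead, through their 75th percentile, the signal was 379, 336, 432 and 607 at 0 Gy against 1970, 892, 1328 and 1052 at 7 Gy. The groups did not overlap there either, and the log2 difference was 1.55 (SE 0.29), a ratio of 2.93. The rank among the tested miRNAs was 2nd with both percentiles, with unscaled totals and with unscaled spot signals. Within slide row 1 the scaled log2 difference was 2.65 and within row 2 it was 1.89, with 2 arrays per group in each, and without scaling the differences were 1.04 and 0.98.

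The labelling spike-ins, control RNAs added before the Cy3 labelling, read lower on 7 Gy replicates 1, 3 and 4 than on any control. Their log10 signal, in replicate order, was 3.68, 3.45, 2.73 and 3.37 on non-irradiated arrays against 2.31, 3.35, 1.95 and 1.97 on irradiated arrays. Thus 7 Gy replicate 2 lay among the controls. Feature Extraction placed 7 Gy replicates 1, 3 and 4 out of range, whereas the hybridization spike-ins, at 3.88 to 4.51, were in range on all 8 arrays. Without those 3 arrays the scaled log2 difference of miR-1897-5p was 0.92 (SE 0.71), resting on 7 Gy replicate 2 alone and taking its spread from the controls, and its rank was 12. With the labelling signal as a covariate it was 1.16 (SE 0.51) at rank 8. The part of the labelling in the difference was otherwise not tested. The arrays differed in detection, with 531 to 603 miRNAs per 0 Gy array and 379, 687, 378 and 567 per 7 Gy array, and no spot was saturated.

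**Figure D3:**
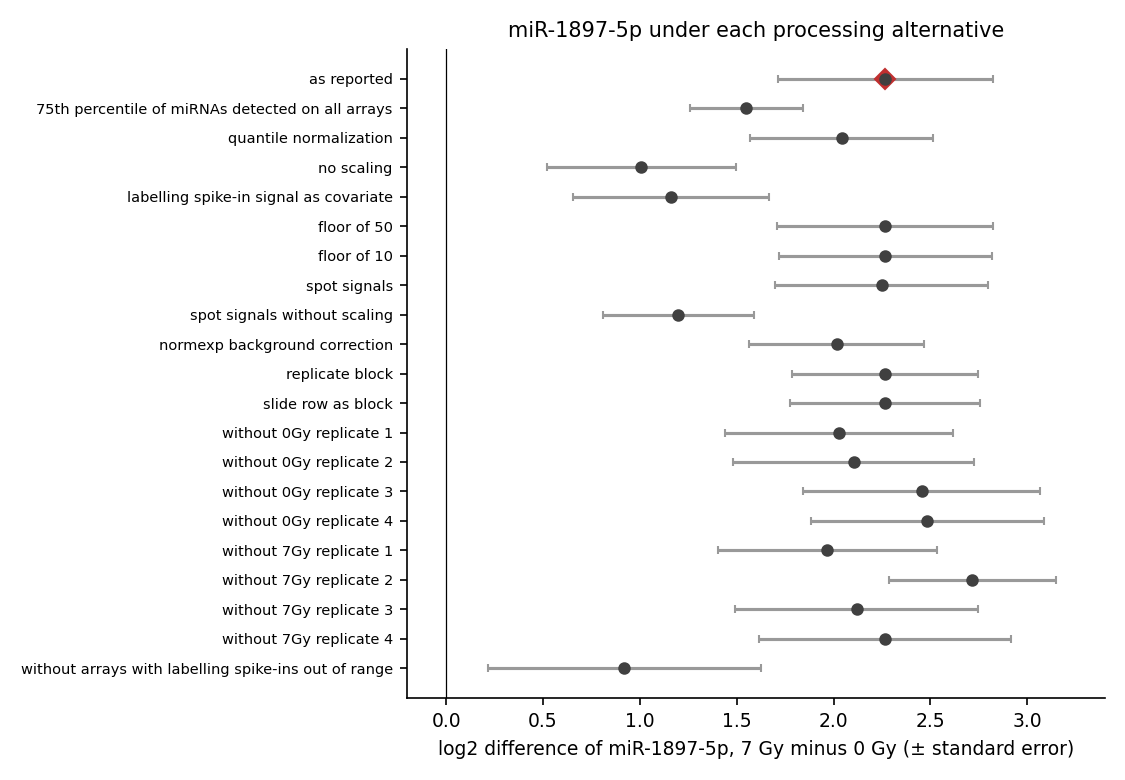
Log2 difference of miR-1897-5p, 7 Gy minus 0 Gy, with its standard error, as reported (red diamond) and under each processing alternative. All values lie above 0, between 0.92 with the arrays of out-of-range labelling left out and 2.72 without 7 Gy replicate 2.

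MiR-1897-3p, the other strand, was hardly detected in the same sera. Its total signal was 5.68, 15.6 and 6.55 on 0 Gy replicates 1 to 3 and it was not detected on replicate 4. On the irradiated arrays it was 9.22 on replicate 2 and 7.90 on replicate 4, and it was not detected on replicates 1 and 3. The arm was thus called detected on 3 of 4 non-irradiated and 2 of 4 irradiated arrays, and the values of the groups overlapped. Of its spots, 35 of 120 (29.2%) at 0 Gy and 44 of 120 (36.7%) at 7 Gy were well above background. In replicate order these were 1, 30, 4 and 0 of 30 spots per array at 0 Gy. At 7 Gy they were 0, 27, 0 and 17, so the pooled shares rest on few arrays and are no rates of the groups. The median spot signal of the arm's 2 probes was 28.0, 12.2 and 5.40 on 0 Gy replicates 2 to 4, with replicate 1 between the last 2 of these values. It was 1.73, 15.7, 2.79 and 14.3 on the 7 Gy arrays. All 8 scaled totals lay below the floor of 100, the highest being 7.03, so that the arm did not enter the test and its floored log2 difference was 0. A change of this arm was not measurable at this signal.

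An arm pair of this kind was common on the arrays. Of 723 hairpins with a 5p and a 3p miRNA on the array, 120 had the 5p arm detected on all 8 arrays. In 102 of these the 3p arm was detected on fewer arrays, and in 68 on none, while miR-1897 had 8 and 5. In 87 hairpins only the 5p arm was tested, in 47 only the 3p arm, in 5 both and in 584 neither. MiR-140, miR-142a, miR-150 and miR-328 had differences of the same sign in both arms and miR-652 had opposite signs. In 5p and 3p order the differences were −1.02 and −2.71 for miR-140, −0.05 and −1.86 for miR-142a and −0.27 and −0.09 for miR-150. They were 0.93 and 0.18 for miR-328 and 0.52 and −0.88 for miR-652. Some of these lay near 0, where a shared sign carries little.

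The miRNAs nearest to miR-1897 on its chromosome stayed low. They were taken with no limit on the distance, and whether they share a transcript with miR-1897 was not tested. MiR-6378, the closest miRNA gene on the array, was detected on all 8 arrays with a highest scaled signal of 65.5, below the floor of 100. MiR-7009-5p was detected on all 8 with a highest value of 40.1, miR-7008-5p on 5 with 5.58 and miR-7008-3p on none. None of these entered the test, so a change in them has no value here.

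The test across miRNAs (limma, Benjamini-Hochberg adjusted p below 0.05) called 4 of 208 higher, or 1.92%, and 4 lower, also 1.92%. The higher ones were miR-709, miR-3470a, miR-3473e and miR-5128, and the lower ones let-7b-5p, miR-130b-3p, miR-140-3p and miR-25-3p. These calls did not hold across settings: limma called 0 higher and 0 lower without scaling, with the labelling covariate and with the replicate number as a block, 18 and 8 with the slide row as a block, and 56 and 14 without 7 Gy replicate 2 (at an unadjusted p below 0.05 the counts were 1 and 17, 12 and 21, and 47 and 18 for the first 3 of these settings and 46 and 16 as reported). The same holds for the calls counted in the lists below. The 11 other miRNAs that the study lists as increasing, chosen on these same samples and so no independent evidence of direction, were all tested. In limma 3 of the 11 rose at an adjusted p below 0.05, namely miR-709 (1.56, adjusted p = 0.0474), miR-3470a (1.29, adjusted p = 0.0202) and miR-5128 (1.80, adjusted p = 0.0474), none fell, and 8 did not pass. Their median log2 difference was 1.40, from 0.87 to 1.80, against 0.17 over all tested miRNAs. MiR-1897-5p at 2.27 lay above all 11. It also has the largest fold change in the study's list, which comes from these same samples, so this place is no separate result. In 5 of the 11, miR-3473b, miR-709, miR-3470a, miR-3473f and miR-5128, every irradiated array lay above every control. Over all 208 tested miRNAs this held for 14, or 6.73%, and the 11 were listed for differing on these samples. The median of the 11 without scaling was 0.30, against −0.12 over the same 208 miRNAs and 1.01 for miR-1897-5p. MiR-5126, the most abundant of them, had a scaled signal of 1500, 2358, 4173 and 2576 at 0 Gy against 12795, 3115, 18475 and 4937 at 7 Gy. Its scaled log2 difference was 1.64 (limma, adjusted p = 0.135).

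**Figure D4:**
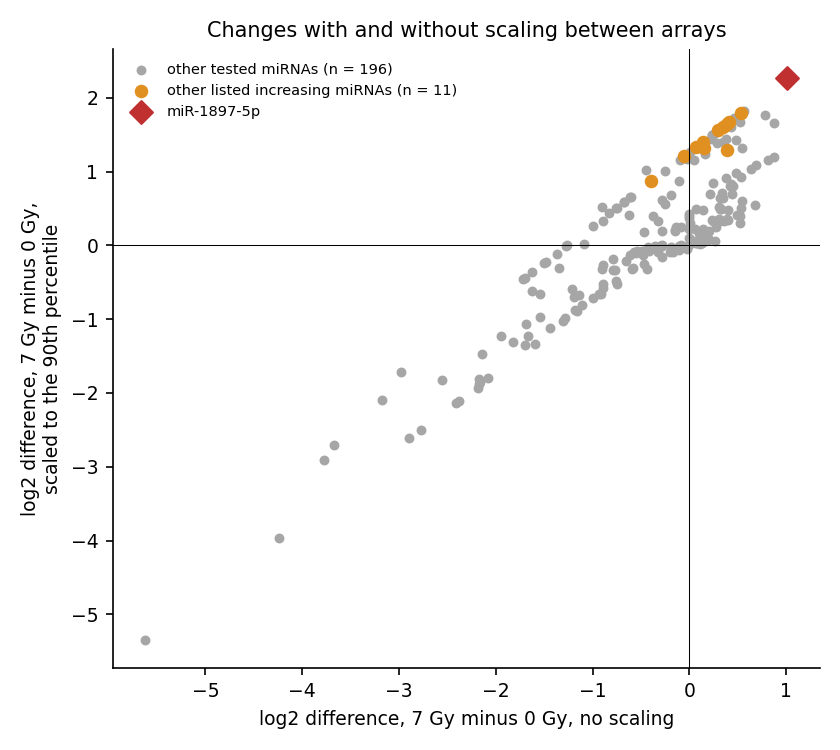
Log2 difference, 7 Gy minus 0 Gy, of each of the 208 tested miRNAs with total signals not scaled (horizontal) and scaled to the 90th percentile (vertical), floor 100. MiR-1897-5p (red diamond, 1.01 and 2.27) lies at the upper right, covering the point of miR-2861 (1.02 and 2.28), and the other 11 listed increasing miRNAs (orange) lie between 0.87 and 1.80 on the vertical axis.

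Neighbours in the miRBase numbering, miR-1892 to miR-1907, share with it only that miRBase numbers are given in order of submission. Of 16 on the array 8 were detected on any array and 5 were tested, of which none rose and none fell in limma at an adjusted p below 0.05. Over all 208 tested miRNAs 1.92% rose and 1.92% fell, so a count of 0 among 5 says little. The median log2 difference of the 5 was 1.15, from 0.07 to 1.49, against 0.17 over all 208. Without scaling the medians were 0.17 and −0.12. In 2 of the 5 every control lay at the floor, so that these could only lie at or above 0. MiR-1892, the largest, had a scaled signal of 114, 168, 262 and 228 at 0 Gy against 426, 239, 740 and 939 at 7 Gy. Its log2 difference was 1.49 (limma, adjusted p = 0.117) and its groups overlapped.

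The miRNAs whose log2 scaled signal was most like that of miR-1897-5p over the 8 arrays were miR-3102-5p (Pearson r = 0.96), miR-5128 (0.95), miR-6995-5p (0.95), miR-7118-5p (0.95) and miR-1904 (0.94). All values of an array share its multiplier, and of 207 miRNAs compared 21 had r over 0.9 and 95 over 0.5, with a median of 0.44. Their mature sequences are shown with the seed in capitals, because they share no seed with each other or with miR-1897-3p.
miR-3102-5p: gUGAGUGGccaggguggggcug
miR-5128: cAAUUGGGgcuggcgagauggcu
miR-6995-5p: cUGGGAGUagaagggggaaacca
miR-7118-5p: uGGGGAAGgcgggagagggaac
miR-1904: gUUCUGCUccucuggagggagg
In GRCm38.p6 (RefSeq) they lie at chr7:100882388-100882409, chr2:37688212-37688234, chr19:47273562-47273584 and chr15:89162882-89162903 on the − strand, and at chr13:109903819-109903840 on the + strand, in that order. Their log2 differences were 1.39, 1.80, 1.40, 1.40 and 1.15, each smaller than that of miR-1897-5p, and 0.29, 0.53, 0.34, 0.14 and 0.05 without scaling. Of the 5, miR-5128 alone passed the test in limma (adjusted p = 0.0474), and the adjusted p of the others was 0.0601 to 0.135. Likeness over all 8 arrays to a miRNA chosen for its group difference favours miRNAs with a like difference. The differences and p-values of these 5 are therefore no separate evidence of a rise. MiR-3102-5p had a scaled signal of 64.2, 141, 176 and 154 at 0 Gy against 615, 206, 533 and 269 at 7 Gy, with replicate 2 the lowest irradiated array. Before scaling replicate 2 was the highest, with totals of 142, 544, 115 and 356 at 7 Gy.

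With the group means removed, the miRNAs most like it were miR-30d-5p (r = 0.95), miR-5119 (0.94), miR-7686-5p (0.93), miR-671-5p (0.92) and miR-7047-5p (0.91), and none of these was among the first 5. Over the 207 miRNAs 10 had r over 0.9 and 89 over 0.5, and the median was 0.39. Their differences between groups ran from −0.11 for miR-30d-5p to 1.18 for miR-671-5p, and none of the 5 passed the test (limma, adjusted p of 0.227 to 0.881). Each of these 5 differences was smaller than that of miR-1897-5p.

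**Figure D5:**
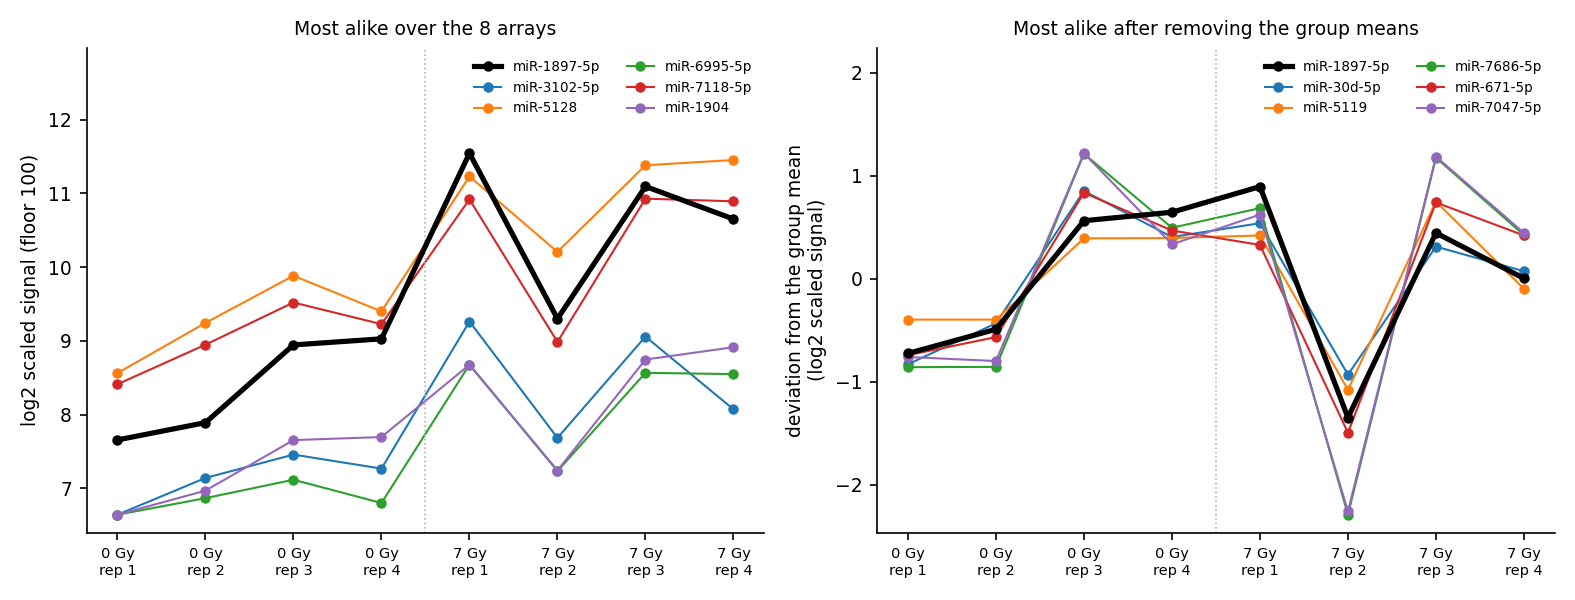
The 5 miRNAs most like miR-1897-5p (black) over the 8 arrays by log2 scaled signal, floor 100 (left), and by deviation from the group mean in log2 units (right), with the dotted line between the 0 Gy and 7 Gy arrays. In both panels 7 Gy replicate 2 is the low point among the irradiated arrays for miR-1897-5p.

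Runs of G, as in the hairpin before the 3p arm, were also counted in the mature miRNAs. RefSeq gave a mature sequence for 1608 of the 1881 miRNAs on the array, and 182 of these, or 11.3%, hold GGGG read 5′ to 3′. Of the 177 tested miRNAs with a sequence 49, or 27.7%, hold it, and these include miR-3102-5p, miR-5128, miR-6995-5p and miR-7118-5p but not miR-1904. Of the 49, 1 (miR-5128) rose and none fell in limma at an adjusted p below 0.05, 46 had a difference above 0, and the median was 0.55, or 0.26 without scaling. Over all 208 tested miRNAs 1.92% rose, 1.92% fell and 124 had a difference above 0. Of the 128 without GGGG, 1 (miR-3473e) rose and the 4 lower miRNAs named above fell. A difference above 0 was seen in 57 of the 128, and their median was −0.02, or −0.43 without scaling. The most abundant members were uneven. MiR-8110 had a log2 difference of 1.68 and miR-1224-5p of −0.00, neither passing the test. Of the 57 tested miRNAs with at least 70% A and G, a class that overlaps the former, none rose and none fell in limma, and the median was 0.59, or 0.23 without scaling, against −0.06 and −0.56 in the 120 with less. With 1.92% called in either direction over all 208, the counts of calls set neither class apart. No motif was searched on the opposite strand, since a mature miRNA is single-stranded. MiRNAs with all controls at the floor can only lie at or above 0 on this scale. They were 12 of the 49 with GGGG and 23 of the 128 without. Of the 57 rich in A and G they were 17, and of the 120 with less they were 18.

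Well-known blood and liver miRNAs were set beside miR-1897-5p as a check of the sera. The red cell miRNAs miR-451a, miR-16-5p and miR-486a-5p, the myeloid and platelet miRNA miR-223-3p, the lymphocyte miRNA miR-150-5p and the liver miRNA miR-122-5p were all detected on 4 of 4 non-irradiated arrays, and their summed scaled signal was 16594 to 82178 there and 7329 to 25845 at 7 Gy. MiR-16-5p, miR-150-5p and miR-122-5p were each detected on 7 Gy replicate 2 only among the irradiated arrays. Without miR-486a-5p the sum was 2854 to 75678 at 0 Gy and 17.5 to 16708 at 7 Gy. The scaled signal of miR-451a was 67369, 39046, 2762 and 5570 at 0 Gy against 83.5, 14871, 32.9 and 10.6 at 7 Gy, a log2 difference of −5.34 with the floor. None of the 6 passed the test in limma (adjusted p = 0.129 for miR-451a). 7 Gy replicate 2, the array with the lowest scaled and second highest unscaled miR-1897-5p among the irradiated, had the highest miR-451a of that group. The same array had the lowest miR-486a-5p of the group, at 2282 against 12661, 25788 and 7312 on replicates 1, 3 and 4. At 0 Gy miR-486a-5p was 6501, 8009, 34551 and 10752, so these red cell miRNAs did not move alike. Fewer cells shedding a miRNA and less miRNA shed per cell cannot be told apart in serum, and the part of these miRNAs in the difference of miR-1897-5p was not tested.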

How the data were processed

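RNA of 4 sera at 0 Gy and 4 at 7 Gy was hybridised by the authors to 1-colour Agilent mouse miRNA arrays, and the deposited intensity values are Feature Extraction output (version 10.7 in the methods, 11.5 in the submitters' processing notes), background-subtracted and not normalized between arrays, with 0.1 as the total of a miRNA not detected. Arrays were then brought to a common 90th percentile over the 1881 miRNAs (the geometric mean of all 8), floored at 100 and log2-transformed. The methods give a lower cut-off of 100, read here as a floor. The 208 miRNAs detected on at least 3 of 8 arrays and not at the floor on all 8 were compared with limma 3.58.1 (lmFit, eBayes, Benjamini-Hochberg) in R 4.3.3, checked on simulated data. P-values measure the spread between these arrays, and the number of arrays limits their precision.

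Both arms and all lists were chosen with earlier results of these data known. Named are both arms, the 5 tested miRNAs most like miR-1897-5p by Pearson correlation over the scaled log2 signals and the 5 by deviations from the group means, and from each list members among the 4 with the highest mean signal. MiR-2861, miR-3960, the called miRNAs, those of the study's list without overlap, the hairpins with both arms tested, the neighbouring genes and their arms were named after their values were seen. Sequences come from RefSeq tables for GRCm38.p6. Alternatives were other scalings, floors, signals, background correction (normexp, offset 50, on median spot signals), filters, blocks, the methods' t-test and leaving out arrays. Spot signals without scaling were added after seeing the data. Figures were drawn with matplotlib 3.10.9.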

Additional observations from a re-analysis of the deposited data

Results flagged for a closer look

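Both arms, the 10 miRNAs most like miR-1897-5p, the most abundant members of each list and the 6 blood and liver miRNAs, 27 in all, were checked in each group for an array whose gap to the nearest other, on the log2 scale with the floor of 100, exceeded Dixon's critical value for the group's range. Of 54 checks 7 were positive, all for 7 Gy replicate 2. Chance marks about 1 in 20 groups of independent values, but that rate cannot be applied to these 7, since the miRNAs share the multiplier of an array and some were picked for likeness. Replicate 2 had a lower scaled signal than the others for miR-6995-5p (151, others 375 to 410), miR-7118-5p (507, others 1903 to 1950) and miR-1904 (151, others 409 to 483). Before scaling it was the second highest irradiated array for all 3, with totals of 398, 1339 and 400. The other irradiated arrays had 94.5, 81.9 and 496 for miR-6995-5p. Replicate 2 was thus low after scaling only, and the cause was not tested. Its scaled signal was above the others for miR-451a (14871, others 10.6 to 83.5), miR-223-3p (215, others 6.87 to 24.5), miR-16-5p (810) and miR-122-5p (806), the last 2 not detected on the other 3 arrays. For these 4 the other arrays all lay at the floor, so that 1 array above it is marked whatever its size. MiR-1897-5p itself, at 631 on this array and 1611 to 2988 on the others, was not marked.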

How the results depend on the processing

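The log2 difference of miR-1897-5p was 2.27 and stayed above 0 under every alternative run. It was 1.01 without scaling, 1.20 with spot signals without scaling, 1.16 with the labelling signal as a covariate and 0.92 without the 3 arrays with out-of-range labelling. Leaving out 1 array gave 1.97 (without 7 Gy replicate 1) to 2.72 (without 7 Gy replicate 2). MiR-1897-3p stayed at 0 by the floor, except for −0.067 with normexp, which has no floor.

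The 4 higher and 4 lower calls moved to 7 and 11 with the 75th percentile, 2 and 4 with quantile normalization, 2 and 3 with a floor of 50, 9 and 19 with a floor of 10, 6 and 10 with spot signals, 4 and 13 with normexp, 18 and 8 with the slide row as a block, 1 and 0 (10 and 3 at an unadjusted p below 0.05) without the out-of-range arrays, 34 and 14 with the methods' t-test at 1.5-fold, and 1 and 1 with it after Benjamini-Hochberg. They were 0 and 0 in limma without scaling (1 and 17 at an unadjusted p below 0.05, 46 and 16 as reported), with spot signals without scaling (3 and 26) and with the labelling covariate (12 and 21). Leaving out 1 array gave 0 to 56 higher and 1 to 14 lower, with 56 and 14 without 7 Gy replicate 2 and 0 and 1 without 0 Gy replicate 1 or 2. Shares of higher calls went from 50% as reported to 38.9% (75th percentile), 33.3% (quantile), 40% (floor of 50), 32.1% (floor of 10), 37.5% (spot signals), 23.5% (normexp) and 69.2% (slide row), and to between 0% and 80% on leaving out 1 array. The only call without the out-of-range arrays was higher.

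Deviations of same-numbered arrays correlated at −0.34, 0.43, 0.55 and 0.42. These values cannot show whether the numbers pair the samples. Same-numbered arrays lay in the same slide row, and all values of an array share its multiplier. With the replicate block the calls were 0 and 0 (47 and 18 at an unadjusted p below 0.05) and miR-1897-5p stayed at 2.27 (SE 0.48). Slide column and irradiation cannot be told apart, and signals near background, such as that of miR-1897-3p, hold no measurable change.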
